A study of Mus musculus with 4 samples.

Results

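Interferon-stimulated genes were followed through single-cell RNA sequencing of discs from mouse tails, the pads of fibrocartilage and gel that join neighbouring vertebrae, with and without a needle puncture. The members were a fixed list of 37 symbols, of which 35 had a row among the 32285 genes measured in every library. Mx1 and Mx2 were not analysed here. Values were summed over barcodes with at least 250 detected genes, here called cells, for each cell class and library.

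Type I and type III interferons, made by cells that sense foreign or misplaced nucleic acid, bind receptors that activate transcription factors, STAT2 and IRF9 among them, which act on the interferon-stimulated response element. Type II interferon, made by lymphocytes, acts mainly on a different element, the gamma-activated site. The induced genes include antiviral effectors, nucleic acid sensors, transcription factors that feed the response forward, chemokines, guanylate-binding GTPases and the machinery that loads peptides on MHC class I.

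To show what the members share in sequence, stretches around a motif upstream of 8 members are printed here from RefSeq promoters of build GRCm38.p6, each read on the gene's own strand. A promoter was found for 29 of the 35 members, as a window of 300 bases with 250 bases before the start site. The core of the interferon-stimulated response element, read as GAAA, any 2 bases and GAAA again, was searched on both strands. It was present in 16 of 29 members (55.2%) and in 3.99% of 27025 genes. The pattern TTCNNNGAA of the gamma-activated site, which reads the same on both strands, was present in 7 of 29 members (24.1%) and in 9.55% of genes. The 2 patterns can share bases, as they did in Bst2. Capitals mark 1 match in each, and the coordinates are those of the printed stretch. The stretch of Ifit1 holds 1 further match to the first pattern, in lower case. That of Isg15 holds 2 further matches, which overlap each other, and 1 of them shares bases with the capitals. Ifit1, Ifit3, Ifit3b and Gbp7 are shown because each had 1 of the 3 largest log2 changes over all cells or in disc cells, Cxcl10 because its direction turned without 1 cell per library, Isg15 because it was high in 1 injured library, B2m because it had the most UMIs, and Irf1 because it held the gamma-activated pattern alone. A match describes letters and is not a shown binding site.
Ifit1, chr19:34640784-34640833, plus strand: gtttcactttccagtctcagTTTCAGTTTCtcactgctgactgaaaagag
Ifit3, chr19:34583387-34583436, plus strand: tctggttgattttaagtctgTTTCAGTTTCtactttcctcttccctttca
Ifit3b, chr19:34607783-34607832, plus strand: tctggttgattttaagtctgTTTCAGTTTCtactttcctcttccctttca
Gbp7, chr3:142530263-142530312, plus strand: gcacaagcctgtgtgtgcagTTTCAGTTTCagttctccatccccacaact
Cxcl10, chr5:92349073-92349122, minus strand: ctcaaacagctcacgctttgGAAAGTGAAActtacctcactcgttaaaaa
Isg15, chr4:156200855-156200904, minus strand: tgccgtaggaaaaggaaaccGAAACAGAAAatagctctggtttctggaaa
B2m, chr2:122147528-122147577, plus strand: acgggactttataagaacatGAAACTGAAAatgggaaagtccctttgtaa
Irf1, chr11:53769904-53769952, plus strand: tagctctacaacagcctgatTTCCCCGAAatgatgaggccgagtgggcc
The stretches of Ifit3 and Ifit3b were the same letter for letter. These neighbouring genes are near copies of each other, so how their reads were split between them is uncertain.

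The animals were wild-type C57BL/6 females, 12 weeks old. Control discs came from the distal coccygeal levels CC12/13 to CC16/17, and injured discs of those same mice from levels CC5/6 to CC9/10, punctured from both sides with a 30G needle and taken after 7 days. Cells of 30 discs from 6 mice were pooled per group, frozen, thawed and sorted for viability, and 2 rounds gave 1 control and 1 injured library each. The labels do not say whether those numbers hold for each round or in total, so whether the rounds are separate pools is unknown here. Since the groups came from different levels, tail level and injury cannot be told apart in any comparison, and p-values measure the spread between pooled libraries, not between animals.

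The libraries differed in depth and in the barcodes they list. The control libraries held 378 cells (1064193 UMIs) in round 1 and 856 cells (2161114 UMIs) in round 2, and the injured libraries 778 cells (6727076 UMIs) and 1834 cells (10558620 UMIs). The median cell held 1061.5 UMIs in control round 1, 836 in control round 2, 7033.5 in injured round 1 and 4635 in injured round 2. Every barcode of control round 1 also had UMIs in injured round 1. Of its 378 cells, 219 had few UMIs in the injured library, 55 had a similar number and 104 had 29.2 to 44.8 times as many there. Cells were clustered without the members and the other interferon pathway genes, and 13 of 19 clusters took a class name from marker genes. Disc cells, meaning the classes named like nucleus pulposus, inner annulus or cartilage, and outer annulus or fibroblast, numbered 268 and 378 in control and 524 and 1433 in injured libraries. The nucleus pulposus-like class rested on T, Krt8, Krt19, Car3 and Cd24a and had almost no cells in injured discs, 5 and 1 against 29 and 71 in control. It was therefore not compared on its own. Its cells held a median of 46.0% mitochondrial UMIs and 319 genes, a sign of low RNA quality. Under 10% mitochondrial UMIs were found in 240 of 268 and 209 of 378 control and 502 of 524 and 1288 of 1433 injured disc cells. In those cells alone the members' median log2 change from control to injured was −0.79, and in inner cells −0.89.

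The members together stood lower in injured than in control discs, although no single member passed the test with injury as its only term. Their summed level over all cells was 863 and 809 CPM (counts, here UMIs, scaled to 1e6 UMIs of the same cells) in control rounds 1 and 2, and 462 and 550.3 CPM in injured rounds 1 and 2. Without B2m and Ifi27, the members with the most UMIs, the sums were 441 and 389 CPM in control and 168 and 230.0 CPM in injured libraries. The groups did not overlap in either sum. In such sums, fewer cells of a type and less RNA per cell cannot be told apart, and UMIs count 3′ ends of molecules, so they are not scaled by gene length. In disc cells the corresponding levels without B2m and Ifi27 were 414 and 339 CPM in control against 139.5 and 203 CPM in injured libraries.

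**Figure D1:**
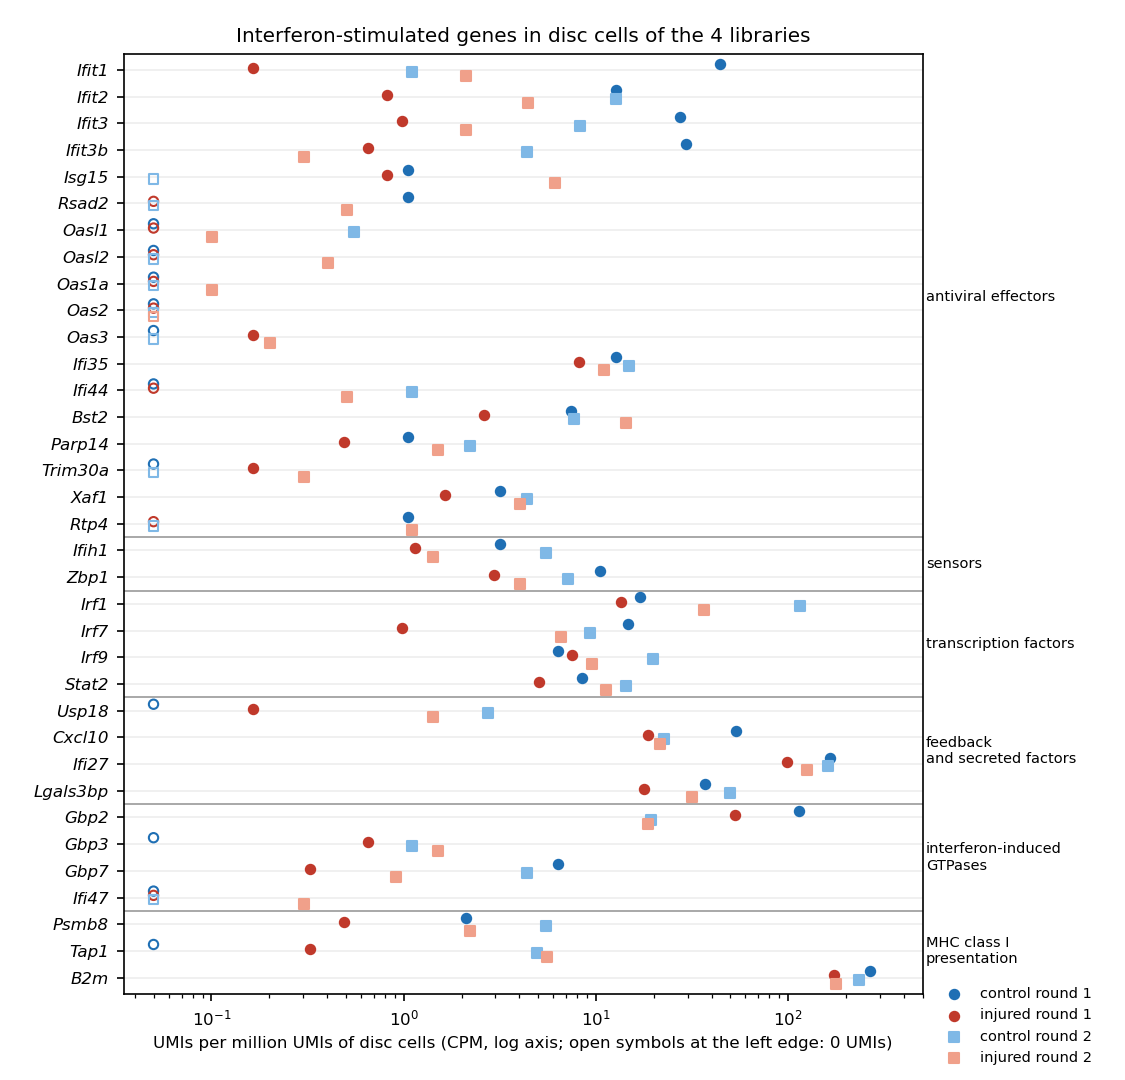
Level of each of the 35 members in disc cells, in CPM on a log axis, with 1 symbol per library and open symbols for 0 UMIs. B2m and Ifi27 lie highest in all 4 libraries, and Ifit1, Ifit3 and Ifit3b are far higher in control round 1 than in the other 3.

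Among the antiviral effectors, the Ifit family differed most between libraries. These genes encode proteins with tetratricopeptide repeats that bind foreign RNA and block its translation. In disc cells, Ifit3b (chr19:34607970-34613401, build GRCm38) stood at 29.5 and 4.41 CPM in control and at 0.655 and 0.303 CPM in injured rounds 1 and 2. Ifit3 (chr19:34583531-34588731) stood at 27.4 and 8.26 CPM in control against 0.983 and 2.12 CPM in injured libraries. Ifit2 (chr19:34550694-34576419) stood at 12.7 CPM in each control library against 0.819 and 4.44 CPM in injured libraries. In these 3 genes both injured libraries lay below both controls, and the counts behind them were small, from 3 to 44 UMIs per library. The log2 change from control to injured was −5.03 ± 1.08 (SE) for Ifit3b, −3.35 ± 0.79 for Ifit3 and −2.13 ± 0.80 for Ifit2. By edgeR none passed an adjusted p of 0.05 (0.3005, 0.358 and 0.606), whereas a fit with the round as a block, since both groups of a round come from the same mice, gave 0.001, 0.014 and 0.047. The disc cell with the most UMIs of members other than B2m and Ifi27, here the top member cell, held 141 and 19 such UMIs in control and 18 and 42 in injured libraries. Without these 4 cells the block fit gave adjusted p-values of 0.076, 0.064 and 0.21, with log2 changes of −3.02, −2.34 and −1.38. Ifit1 (chr19:34640871-34650009) was too low for the test in disc cells. It stood at 44.3 CPM in control round 1, from 42 UMIs, and at 1.10 CPM in control round 2, with 0.164 and 2.12 CPM in injured libraries, so its groups overlapped.

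The other effectors were near the limit of detection. Isg15, a ubiquitin-like protein joined to other proteins during the response, had 1, 5 and 61 UMIs in disc cells of control round 1, injured round 1 and injured round 2, and 0 in control round 2, which allows up to 1.65 CPM at 3 counts. Bst2, a membrane tether that holds budding virus on the cell, stood at 7.38 and 7.71 CPM in control and at 2.62 and 14.3 CPM in injured disc cells. For Bst2 the injured libraries lay on either side of the controls. Isg15 stood at 6.16 CPM in injured round 2, while the order of injured round 1 (0.819 CPM) and the controls (1.05 CPM and 0) was not detectable at this depth. Ifi35 was 12.7 and 14.9 CPM in control and 8.19 and 11.0 CPM in injured disc cells, and Xaf1 stayed between 1.64 and 4.41 CPM in all libraries. Oas2, one of the synthetases that make the trigger for RNase L, had 0 UMIs in disc cells of every library. Oas1a, Oas3, Oasl1, Oasl2, Rsad2, Ifi44, Trim30a and the GTPase Ifi47 had at most 5 UMIs in disc cells of any library, and Parp14, Rtp4 and the GTPase Gbp3 at most 15.

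The sensors Ifih1, which recognises long double-stranded RNA in the cytosol, and Zbp1, which binds left-handed nucleic acid, were low everywhere. Ifih1 stood at 3.16 and 5.51 CPM in control disc cells and at 1.15 and 1.41 CPM in injured ones, a log2 change of −1.71 ± 0.71 (edgeR adjusted p = 0.646). Zbp1 stood at 10.5 and 7.16 CPM in control and at 2.95 and 4.04 CPM in injured disc cells, a log2 change of −1.24 ± 0.59 (adjusted p = 0.715). In both genes the 2 groups did not overlap, and the test was not passed.

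Of the transcription factors, Irf1 differed more between rounds than between groups. Irf1 is induced by interferon gamma and by inflammatory signals and drives MHC class I genes. It stood at 16.9 and 115 CPM in control disc cells and at 13.4 and 36.6 CPM in injured ones, and the groups overlapped. Its log2 change was −1.33 ± 0.83 (edgeR adjusted p = 0.791), and without control round 2 it turned to 0.63. Irf7, the factor that amplifies type I interferon production, stood at 14.8 and 9.37 CPM in control against 0.983 and 6.56 CPM in injured libraries (log2 change −1.53 ± 0.88, adjusted p = 0.765). Irf9 and Stat2, which take part in the complex that binds the response element, overlapped between groups, with changes of −0.59 ± 0.58 and −0.42 ± 0.59.

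Cxcl10 and Lgals3bp are secreted, and Ifi27 was listed in the same group. Cxcl10, a chemokine for T cells, stood at 53.8 and 22.6 CPM in control and at 18.7 and 21.6 CPM in injured disc cells, a log2 change of −0.84 ± 0.49 (edgeR adjusted p = 0.768). Without the top member cell of each library its change was 0.60. These cells held 37 and 19 of its UMIs in control and 10 and 0 in injured libraries. Lgals3bp, a secreted glycoprotein, stood at 36.9 and 50.1 CPM in control against 17.9 and 31.7 CPM in injured disc cells (−0.74 ± 0.43, adjusted p = 0.764). Ifi27, a small mitochondrial protein, was at 164 and 161 CPM in control and at 99.2 and 125 CPM in injured disc cells (−0.47 ± 0.35, adjusted p = 0.833). Lgals3bp and Ifi27 were lower in both injured libraries than in both controls by less than the test could separate. Usp18, which removes Isg15 and damps the receptor, had at most 14 UMIs in disc cells of any library.

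Among the GTPases, Gbp2 had the most UMIs and differed between rounds. Over all cells it held 110 of 122 and 42 of 60 GTPase UMIs in control and 341 of 365 and 196 of 249 in injured libraries. These proteins coat the vacuoles of intracellular pathogens. Gbp2 stood at 114 CPM in control and 53.2 CPM in injured disc cells of round 1, and at 19.3 and 18.8 CPM in those of round 2. Its log2 change was −0.84 ± 0.83 (edgeR adjusted p = 0.885) and turned to 0.99 without control round 1. Gbp7 (chr3:142530342-142550149) stood at 6.33 and 4.41 CPM in control against 0.328 and 0.908 CPM in injured disc cells, from 2 to 9 UMIs per library. Its log2 change of −2.89 ± 0.83 had an edgeR adjusted p of 0.491, and 0.049 with the round as a block.

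B2m, the light chain of MHC class I, was the most abundant member. It stood at 268 and 233 CPM in control and at 172 and 177 CPM in injured disc cells, without overlap (log2 change −0.46 ± 0.34, edgeR adjusted p = 0.832). Psmb8, a subunit of the immunoproteasome, was mostly outside disc cells. Over all cells it stood at 13.2 and 19.4 CPM in control and at 5.05 and 6.82 CPM in injured libraries, and its log2 change of −1.39 ± 0.47 had an adjusted p of 0.494, or 0.041 with the round as a block. The unnamed clusters of shared round 1 barcodes described below held 12 of its 14 and 27 of its 42 control UMIs, and without barcodes with Ctrb1, Try5 or Igkc the block fit gave −0.80 and an adjusted p of 0.327. In disc cells Psmb8 overlapped between groups, at 2.11 and 5.51 CPM in control and 0.491 and 2.22 CPM in injured libraries. Tap1, which carries peptides into the endoplasmic reticulum, was the one tested member that was higher in injured libraries over all cells, with a log2 change of 0.39 that was not called.

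Across the list, no member was called by edgeR with injury as the only term. Over all cells 23 members passed the filter on low counts, 22 of them with a log2 change below 0 against 51.0% of all genes tested. The members' median was −0.77 against −0.01 for all genes, and 7 had an unadjusted p under 0.05 against 7.91% of genes. In 15 of the 23 both injured libraries lay below both controls, which held for 20.6% of genes. The same fit called 14 of 11990 genes (0.117%). In disc cells 19 members were tested, 17 were below 0 against 51.1% of genes, the median was −0.83 against −0.02, 5 had an unadjusted p under 0.05 against 7.66% of genes, and 12 did not overlap against 20.3%. There the fit called 2 of 11206 genes (0.0178%). A member that is high only in control libraries passes such a filter through them, so these counts describe the tested members and not the list. With no filter the members' median over all cells was −0.47. With the filter, leaving out 1 library at a time gave medians between −1.27 (without injured round 2) and −0.46 (without control round 2).

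With the round as a block, edgeR called 5 members lower in injured discs over all cells (Irf1, Psmb8, Ifit2, Ifit3 and Ifit3b), beside 6.14% of all genes in either direction and 3.41% lower. In disc cells it called 4 lower (Gbp7, Ifit2, Ifit3 and Ifit3b), beside 2.5% of genes. Without the top member cell of each library, taken among the cells fitted, it called 0 members in both sets, beside 2.74% and 1.76% of genes called lower. In each set 9 members then had an unadjusted p under 0.05, as did 20.7% and 19.6% of genes, and the lowest adjusted p of a member was 0.052 and 0.064. Irf1, Psmb8 and Gbp7 had no UMI in the cells left out, and their log2 changes hardly moved while their adjusted p passed 0.05: Irf1 at −1.04 and Psmb8 at −1.38 over all cells with and without them, and Gbp7 from −2.85 to −2.86 in disc cells. The members' median with injury as the only term was −0.67 over all cells and −0.75 in disc cells without those cells. DESeq2 called Ifit1, Ifit3 and Ifit3b lower over all cells, beside 1.16% of genes, and Ifit3 and Ifit3b in disc cells, beside 0.759%. Without the shared barcodes of round 1 the medians with injury as the only term were −0.87 over all cells, −0.91 for disc cells and −0.94 for inner cells.

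**Figure D2:**
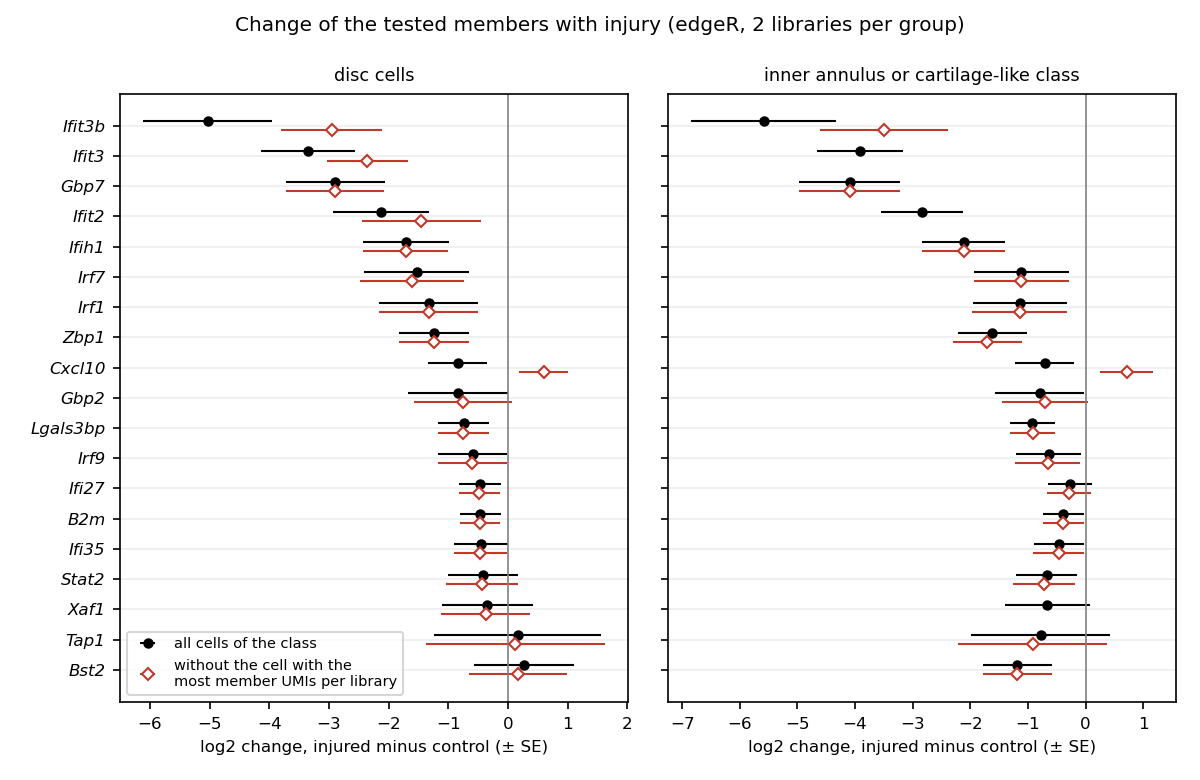
Log2 change of each tested member from control to injured libraries, with its SE from edgeR, in disc cells (left) and inner annulus or cartilage-like cells (right). Black points use all cells and red diamonds leave out the cell with the most member UMIs in each library, which moves Ifit3b in disc cells from −5.03 to −2.95 and Cxcl10 from −0.84 to 0.60.

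The inner annulus or cartilage-like class, cells that build the cartilage-like part of the ring, held most disc cells: 233 and 300 in control and 504 and 1111 in injured libraries. One of its clusters was led by Myoc and Angptl7, with 35 and 49 control and 16 and 54 injured cells. That cluster took this class from 6 detected markers, although Myoc is on the outer annulus list. All 19 members tested in the inner class had a log2 change below 0, against 52.4% of genes, with a median of −0.92 against −0.03 for all genes. Members high only in control cells pass the filter through them, so this count describes the tested members. Without the top member cell of each library 16 were tested, 15 were below 0 and 1 stood at 0.71. By edgeR 0 were called (0.0% of 10889 genes), 7 had an unadjusted p under 0.05 against 7.86% of genes, and DESeq2 called 1, Ifit3, beside 0.56% of genes called lower. Both injured libraries lay below both controls in 13 of 19 members against 23.7% of genes. With the round as a block 8 members were called lower (Ifih1, Zbp1, Gbp7, Irf1, Lgals3bp, Ifit2, Ifit3 and Ifit3b), beside 4.52% of genes. Without the top cells 6 of these were called: Ifih1, Zbp1, Gbp7, Irf1, Lgals3bp and Ifit3b, beside 3.89% of genes. Ifit2 and Ifit3 then did not pass the filter on low counts and were not tested. In this class Gbp7 had a log2 change of −4.09 ± 0.88 and Ifit3 one of −3.92 ± 0.75 (edgeR adjusted p of 0.227 and 0.213).

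The clusters of this class took different shares of it in the 2 groups. A cluster led by Cnmd and Grem1, genes of resting cartilage that encode chondromodulin and a BMP antagonist, held 76 of 233 inner cells in control round 1 (32.6%) and 210 of 300 in control round 2 (70.0%). It held 25 of 504 (4.96%) in injured round 1 and 76 of 1111 (6.84%) in injured round 2. Without the barcodes of control round 1 that had a similar or larger number of UMIs in injured round 1, none of which lay in the cluster, its share in control round 1 was 55.1% (76 of 138). The members other than B2m and Ifi27 stood at 621 and 457 CPM in its control cells and at 242 and 429 CPM in its injured cells. In the other inner cells they stood at 285 and 213 CPM in control and at 139 and 160.0 CPM in injured libraries, and without those barcodes at 309 CPM in control round 1. With all cells kept, the cluster was above the other inner cells of its own library in all 4 libraries. In control round 1 that rests on 1 cell, without which the cluster stood at 246 CPM, below the 285 CPM of the other inner cells. Outside the cluster both injured libraries were below both controls.

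Within that cluster the control library was above the injured one in each round. Its top member cell held 141 and 19 member UMIs in control and 9 and 10 in injured libraries. Without that cell in each library the level was 246 CPM in control and 210.2 CPM in injured round 1, with exact Poisson 95% intervals of 198 to 302 and 146 to 292. In round 2 it was 439.5 CPM in control and 391 CPM in injured libraries, with intervals of 398 to 484 and 317 to 478. The intervals overlap within each round, and the trim took more from control round 1 than from any other library. These intervals cover counting error only. Fitted alone, the cluster had 6 testable members, 4 below 0, none called (0.0% of 4633 genes) and none with an unadjusted p under 0.05, with a median of −0.28, where those 6 had a median of −0.76 in the whole class. Without the top cells the median of 5 testable members was −0.34, where those 5 had −0.80 in the class, and none was called (0.0% of 4494 genes). The inner class without the cluster had 13 testable members, 12 below 0, none called (0.096% of 10414 genes), 2 with an unadjusted p under 0.05 against 4.85% of genes, and a median of −0.38, where those 13 had −0.80 in the class. The block fits called no member in any of these 3 sets, beside 0.95%, 1.0% and 2.52% of genes. The cluster was singled out after these values were seen, and few members were deep enough to test in it.

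**Figure D3:**
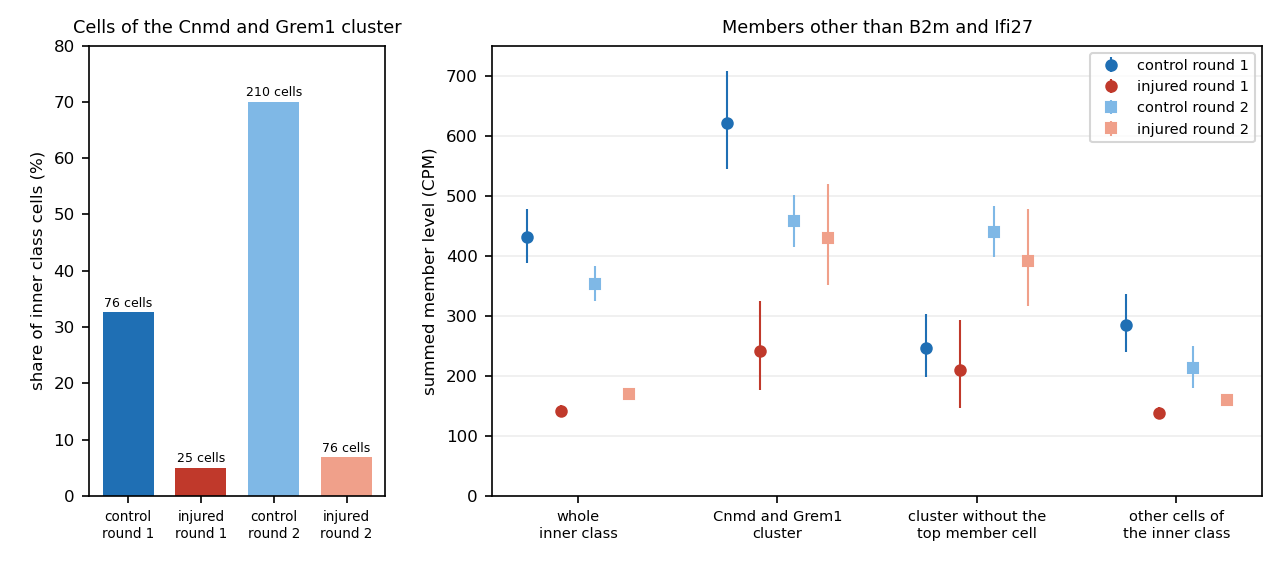
Left, the share of inner class cells that belong to the Cnmd and Grem1 cluster in each library, with cell numbers. Right, the summed level of members other than B2m and Ifi27 in CPM with exact Poisson 95% bars, in the whole inner class, in the cluster, in the cluster without the top member cell, and in the other inner cells. In the third set, which leaves out the cluster's top cell in every library, control and injured stand at 246 and 210.2 CPM in round 1 and at 439.5 and 391 CPM in round 2.

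Single members varied within the cluster as well. Irf1 stood at 2.69 and 153 CPM in its control cells and at 0 and 101 CPM in its injured cells, so round 2 was high and round 1 low in both groups. At 3 counts, that 0 allows up to 16.5 CPM. Ifi27 stood at 151 and 198 CPM in control and at 115 and 352 CPM in injured cells of the cluster. Gbp2 stood at 148 and 26.1 CPM in control and at 98.9 and 48.6 CPM in injured cells, with round 1 above round 2 in both groups. Gbp7 had 3 and 5 UMIs in control cells of the cluster and 0 in either injured library, which allows up to 16.5 and 12.1 CPM.

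One cell held much of the antiviral signal of control round 1. This cell of the Cnmd and Grem1 cluster, with 5657 UMIs in all, had 141 UMIs of members other than B2m and Ifi27, which was 30.1% of such UMIs in its library. It held 38 of the library's 42 Ifit1 UMIs, 10 of 13 for Ifit2, 21 of 27 for Ifit3, 25 of 28 for Ifit3b and 37 of 53 for Cxcl10. It held none of Ctrb1, Try5 or Igkc, and it was among the barcodes with few UMIs in the injured library. The next cell of that library had 14 member UMIs, 12 of them Gbp2. In control round 2 the top cell, also of the Cnmd and Grem1 cluster, held 19 of 59 Cxcl10 UMIs and no other such member UMI. In injured round 1 the top cell was macrophage-like with 28 member UMIs, and in injured round 2 the top 2 were outer annulus or fibroblast-like with 42 each.

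**Figure D4:**
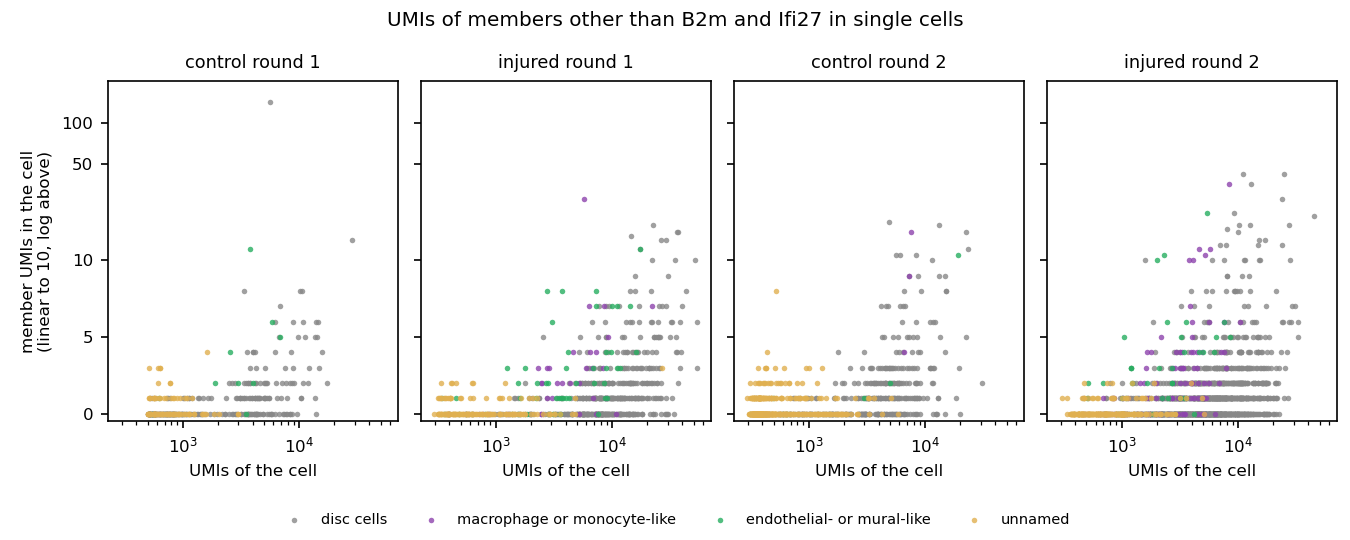
UMIs of members other than B2m and Ifi27 in each cell (linear to 10, log above) against all UMIs of the cell (log axis), by library, coloured by cell group. A single disc cell of control round 1 lies at 141 member UMIs, while no cell of the other 3 libraries has more than 42.

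Cells with at least 5 UMIs of antiviral effectors, which 1 gene can supply, were rare. They numbered 2 of 378 and 3 of 856 in control and 5 of 778 and 29 of 1834 in injured libraries. In injured round 2, 19 of the 29 were outer annulus or fibroblast-like, or 5.92% of that class (exact binomial 95% interval 3.6 to 9.1). That class, the collagen-rich outer ring and its proliferating cells but not the Myoc and Angptl7 cluster, held 321 cells there. It held only 6, 7 and 15 in the other libraries, and injury was not tested in it. Its members other than B2m and Ifi27 stood at 289 CPM in injured round 2, of which antiviral effectors made up 121 CPM. The class gave 53.0% of the library's effector UMIs from 26.2% of its UMIs. Bst2 had 122 UMIs (44.1 CPM) and Isg15 56 UMIs (20.2 CPM) in these cells, against 2.80 and 0.70 CPM in inner cells of that library. The library's 88 Isg15 UMIs lay in 26 cells, and single outer cells held 17, 10 and 9 of them. The library's 176 Bst2 UMIs lay in 92 cells, with at most 13 in 1 cell. The cells differ in depth as well, with a median of 7223 UMIs in the outer and 5405 in the inner class.

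In both injured libraries the macrophage, endothelial and mural-like classes stood above inner cells in members' level, from few cells. Since clusters were made from other genes of the same cells, differences between classes are given as descriptions. Macrophage or monocyte-like cells, 38 and 92 in injured and 1 and 3 in control libraries, stood at 559 and 822 CPM in injured libraries for members other than B2m and Ifi27. Their B2m level was 1034 and 854 CPM there, far above the 174 and 184 CPM of inner cells. Endothelial-like cells stood at 1077 CPM (8 cells) and 314 CPM (5 cells) in control and at 551 CPM (36 cells) and 1053 CPM (16 cells) in injured libraries. Mural-like cells, the smooth muscle and pericytes of vessels, stood at 420.2 and 1439 CPM in injured libraries, from 16 and 19 cells. The nucleus pulposus-like cells stood at 319 and 147 CPM in control, from 29 and 71 cells. With macrophage, endothelial and mural-like cells left out, the members' median over the remaining cells was −0.82, against −0.77 over all cells.

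**Figure D5:**
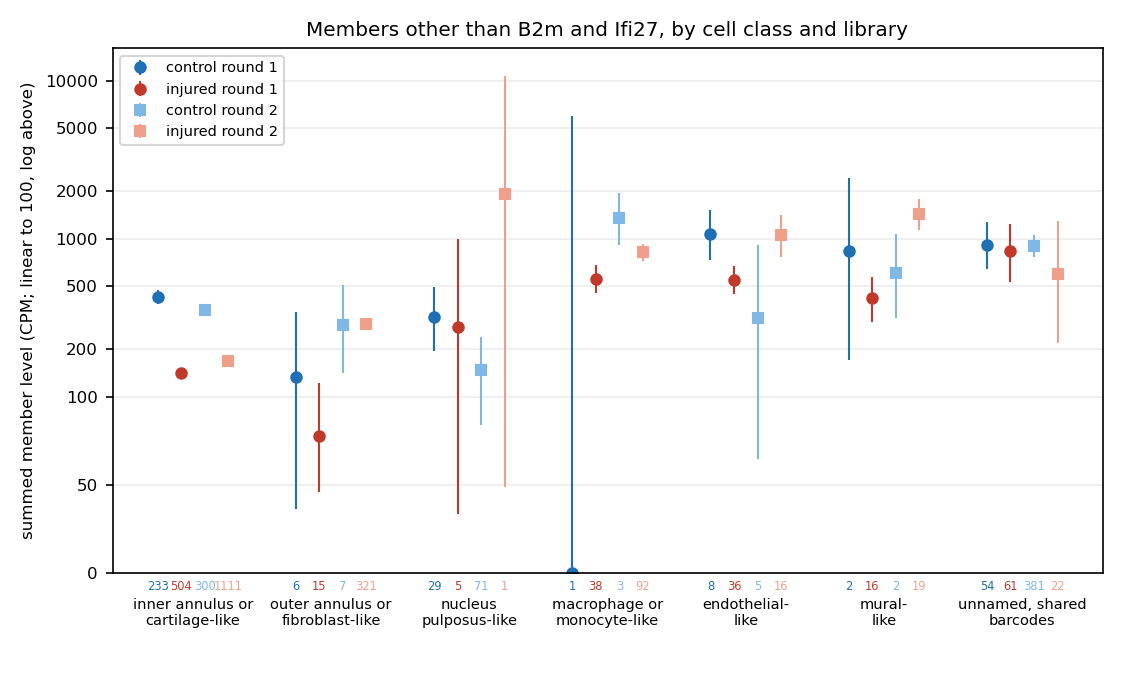
Summed level of members other than B2m and Ifi27 by cell class and library, in CPM (linear to 100, log above), with exact Poisson 95% bars and the number of cells under each symbol. The inner class separates by group (431 and 353 CPM in control, 142 and 169 CPM in injured libraries), and classes with few cells have wide bars.

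Barcodes with pancreatic or plasma cell transcripts held a small share of the members' UMIs. Ctrb1 and Try5 encode digestive proteases of the pancreas and Igkc an antibody light chain, none of which is a known product of disc cells. At least 1 of their UMIs was found in 32 and 103 control and 29 and 14 injured barcodes, most of them in unnamed clusters (27, 100, 22 and 9). These barcodes gave 4.36% and 6.12% of member UMIs in control and 2.00% and 0.396% in injured libraries, against 4.63%, 3.62%, 1.55% and 0.446% of all UMIs in the same order. Only in control round 2 did the exact binomial 95% interval of the first share, 5.04 to 7.35, exclude the second. Without them the summed level of the 35 members was 865 and 788 CPM in control and 459 and 551 CPM in injured libraries, against 863, 809, 462 and 550.3 CPM with them. The roles differed. These barcodes held 1 and 0 of the 110 and 58 Ifit UMIs of the control libraries, but 6 of 14 and 16 of 42 Psmb8 UMIs. In control round 2 they held 10.9% of antiviral effector and 8.25% of MHC class I UMIs, and in control round 1 13.1% of transcription factor UMIs (8 of 61). Without them the members' median log2 change was −0.81 over all cells, −0.86 for disc cells and −0.99 for inner cells, and 0 members were called by edgeR in each (0.0254%, 0.0269% and 0.0% of genes), with 6, 5 and 7 members at an unadjusted p under 0.05. With the round as a block, 3 members were then called over all cells (Ifit2, Ifit3 and Ifit3b, 2.86% of genes called lower), 2 in disc cells (Ifit3 and Ifit3b, 1.49%) and the same 8 in the inner class (4.42%). Over all cells Irf1 (adjusted p = 0.063) and Psmb8 (0.327) lost their calls, and in disc cells Gbp7 (0.085) and Ifit2 (0.097).

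The transcripts of other cell types were spread unevenly, so their levels stand beside these sums. Over all cells, the 11 exocrine pancreas markers summed to 2531 and 1676 CPM in control and to 43.6 and 7.67 CPM in injured libraries, with all 11 detected in each. The 9 B or plasma cell markers summed to 1228 and 724 CPM in control and 106 and 3.41 CPM in injured libraries, and the 12 macrophage markers to 73.3 and 217 CPM against 382 and 454 CPM. Iglc2 was at 0 in 3 of the libraries, Mzb1 at 0 in injured round 2, and Adgre1, Ms4a7 and Mrc1 at 0 in control round 1. In the inner class the pancreas markers summed to between 2.40 and 10.5 CPM and the macrophage markers to between 8.39 and 18.7 CPM, with Adgre1 at 0 in every library. Among the other lists in that class, the 6 osteoblast markers (Bglap at 0 in 3 libraries, Sp7 in 1 and Dmp1 in 3) stood at 898 and 69.6 CPM in control and 41.6 and 23.5 CPM in injured libraries, separating the groups in the members' direction. The B or plasma cell markers stood at 5.84 and 3.6 CPM against 2.39 and 2.66 CPM. They came from 5 and 6 control and 14 and 19 injured UMIs, too few to read an order. The 12 outer annulus or fibroblast markers separated the groups the other way. They stood at 10183 and 9447 CPM in control and 16687 and 19046 CPM in injured libraries. So did the 8 neutrophil markers, at 14.0 and 1.2 against 17.2 and 18.9 CPM. The 10 nucleus pulposus markers did too, at 528 and 459 against 716 and 558 CPM, and the 7 surface epithelium markers, at 29.2 and 37.8 against 44.3 and 56.7 CPM. Shh, Noto, Krt5 and Krt15 were at 0 in every library of that class. The T or NK cell markers were also higher in both injured libraries. They came from 2 and 6 control and 27 and 30 injured UMIs, again few. In that class the members other than B2m and Ifi27 stood at 431 and 353 CPM in control and 142 and 169 CPM in injured libraries. The part of other cell types' transcripts in the differences, there or over all cells, was not tested. The unnamed clusters of shared round 1 barcodes, led by Ccl11 and Dpep1, Krt18 and Krt8, Igkc and Jchain, or Ctrb1 and Try5, stood at 919.6 and 903 CPM in control for members other than B2m and Ifi27. They held 54 and 381 control cells against 61 and 22 injured cells.

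RNA outside cells was read from barcodes of at most 100 UMIs, which control round 1 does not list. In injured round 1 the members summed to 1202 CPM in those barcodes and to 462 CPM in cells, and 29 of 35 members lay lower in cells by their intervals and 0 higher. In control round 2 they summed to 577 CPM there and 809 CPM in cells, with 9 members lower and 8 higher in cells. In injured round 2 they summed to 466 and 550.3 CPM, with 12 lower and 5 higher. Psmb8 was higher outside cells in all 3 libraries, at 147, 47.1 and 31.2 CPM against 5.05, 19.4 and 6.82 CPM in cells. Isg15 likewise stood at 61.7, 27.2 and 21.2 CPM outside cells and at 2.68, 7.87 and 8.33 CPM in them. Irf1 was lower outside than in cells in both round 2 libraries, at 42.0 against 112 CPM in control and 22.3 against 38.5 CPM in injured discs. The part of such RNA in the differences between groups was not tested.

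The share of cells with a member UMI was also read at equal depth, since the median disc cell held 2557.5 and 4004 UMIs in control and 9125 and 5665 in injured libraries. Before thinning, 40.3% and 56.3% of control disc cells and 58.2% and 55.1% of injured ones held a UMI of a member other than B2m and Ifi27. After thinning each cell to 1000 UMIs, with 100, 47, 7 and 29 shallower cells left out in the same order, the shares were 28.0% and 23.3% in control and 11.8% and 17.6% in injured libraries. At equal depth both injured libraries lay below both controls in this summed share, as the CPM did. Single roles and members differed. Over the same disc cells thinned, antiviral effectors overlapped between groups, at 7.74% and 3.63% in control and 2.32% and 3.92% in injured libraries. Cxcl10 stood higher in both injured libraries, at 2.13% and 2.07% (11 and 29 cells) against 1.19% and 1.51% (2 and 5 cells) in control, opposite to its CPM in disc cells, so no order is read from it.

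Genes of the wider pathway were read as 5 lists of 104 genes in all, of which Cxcl11 was not analysed here. The 9 interferon genes themselves had no UMI in disc cells of any library, and over all cells only Ifnb1 had any, 3 UMIs in injured round 2. Over all cells 51.0% of genes were below 0, with a median of −0.01, and the block fit called 6.14%, or 3.41% lower. Of 12 tested receptor and JAK-STAT genes 8 were below 0, with a median of −0.12, and none was called. The most abundant were Socs3, the feedback inhibitor of cytokine receptors, at 193 and 282 CPM in control and 119.8 and 149 CPM in injured libraries, Stat3 at 159 and 177 against 118 and 166 CPM, and Jak1 at 145 and 87.0 against 99.7 and 78.8 CPM. Of 12 tested sensors and adaptors 6 were below 0, and the block fit called Irf8 lower. Among the adaptors Myd88, Irf3 and Tbk1 had the most UMIs, with log2 changes of −0.10, 0.03 and 0.03 that were not called.

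Among 50 other interferon-stimulated genes 36 were tested, 27 were below 0 against 51.0% of genes, the median was −0.42, and edgeR called none with injury as the only term. Irgm1, a GTPase of autophagy and pathogen defence, had the lowest adjusted p of those named here. It stood at 46.0 and 83.8 CPM in control and 3.72 and 6.25 CPM in injured libraries, a log2 change of −3.61 ± 0.49 (edgeR adjusted p = 0.057). The block fit called 7 lower (Irgm1, Ifitm1, Ms4a4c, Gbp6, Ifi211, Slfn5 and Iigp1) and 3 higher (Ccl5, Slfn2 and Ifi27l2a), beside 6.14% of genes in either direction. In disc cells 26 of the list were tested, 19 were below 0 against 51.1% of genes, the median was −0.13 against −0.02, and the block fit called Irgm1, Gbp6 and Ms4a4c lower, beside 2.5% of genes, and Ccl5 higher. Ccl5, a chemokine for T cells and monocytes, stood at 2.82 and 0.925 CPM in control and at 14.0 and 13.6 CPM in injured libraries. Of 14 tested genes of MHC class I presentation 10 were below 0, with a median of −0.58. H2-D1, a class I heavy chain, stood at 366 and 434 CPM in control and 249 and 288 CPM in injured libraries, a log2 change of −0.51 ± 0.35. Calr and Pdia3, chaperones that also serve other proteins, had log2 changes of 0.17 and −0.04, and the block fit called H2-Q4 lower.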

How the data were processed

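Per the labels, viable disc cells were captured with the 10x Genomics Chromium v3 3′ kit and sequenced on an Illumina NextSeq 500. The deposited values are raw UMI counts per gene and barcode, made by the authors on mm10 with Cell Ranger 6.0.0 (control round 1) and 4 (the other libraries), per the submitters' processing notes and the file headers. Control round 1 lists 444 barcodes, the lowest with 502 UMIs, so the authors filtered the libraries differently.

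Barcodes with at least 250 detected genes were taken as cells, the minimum stated in the series' design text. Leiden clusters (scanpy 1.11.5, 30 components, resolution 1) were made without 138 member and pathway genes and named from 19 marker lists. A cluster stayed unnamed under 3 detected markers, or where most of its control round 1 barcodes held about as many UMIs in injured round 1. Doublets were kept, and Scrublet called 3, 0, 1 and 6 cells (control and injured round 1, then round 2), too few to show that it worked. UMIs were summed by library and class and tested with edgeR 4.0.16 (quasi-likelihood, filterByExpr, TMM, injury as the only term). SE was taken as the log2 change over the root of F, and p-values were adjusted by Benjamini-Hochberg over all genes tested and called under 0.05. The round as a block is an alternative, because control and injured discs came from the same mice, and deviations of the 2 libraries of a round correlated at 0.528 (all cells), 0.479 (disc cells) and 0.558 (inner class). Other alternatives were DESeq2 1.42.0, filters on genes, cells and barcodes, and each library left out. Intervals are exact at 95% and cover counting error only. The edgeR script was tested on simulated counts.

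Members and lists were chosen with earlier results of these data known. By rule, the text names the 10 tested members with the largest change in disc cells, the members with the most UMIs, the 3 highest members of each class, and pathway genes called or among the 3 most abundant of a list. Ifit1, Ifi35, Xaf1, Irf9, Stat2 and Tap1, the members named for 0 or few UMIs, and the Cnmd and Grem1 cluster were chosen after their values were seen. Gene coordinates are from GENCODE vM21 (GRCm38), and motif sequences from RefSeq. Results of some genes are not reported here.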

Additional observations from a re-analysis of the deposited data

How the results depend on the processing

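The members' median stayed below 0 under every alternative run. Members with the largest changes or the most UMIs gave 26 results over all cells and in disc cells. These kept direction and side of the threshold in 401 of 441 alternatives, passed it in 32 and turned sign in 8. In the inner class, which is not in that count, Cxcl10 turned from −0.71 to 0.98 without the Cnmd and Grem1 cluster. Leaving out 1 library gave medians from −1.27 to −0.46 over all cells, −1.498 to −0.55 in disc cells and −1.32 to −0.64 in the inner class, with 126 to 273, 0 to 97 and 1 to 61 genes called and 1 to 6, 0 to 3 and 0 to 3 members. A lone library was then assumed to vary like the other group. Leaving out 1 library moved Irf1 between −2.01 and 0.36 (all cells) and −2.28 and 0.63 (disc cells), the latter without control round 2, and Gbp2 between −1.59 and 0.91 and −1.72 and 0.99, the latter without control round 1. Cxcl10 turned to 0.39 and 0.60 without the top member cell of each library among the cells fitted, and with the replicate block to 0.41 and 0.62. Against 14 genes and 0 members over all cells, DESeq2 called 181 and 3, no filter 378 and 3 (median −0.47), and the replicate block 736 and 5. Genes called there were 0 with 500 detected genes, 30 with the UMI minimum of control round 1, and 3 without shared barcodes or without Ctrb1, Try5 or Igkc at either threshold. In disc cells, against 2 and 0, DESeq2 called 120 and 2, no filter 299 and 3, the block 557 and 4, and 500 genes or under 10% mitochondrial UMIs 0 genes. In the inner class, against 0 and 0, DESeq2 called 104 and 1, no filter 218 and 4, the block 1062 and 8, and the mitochondrial limit 13 genes. The block without top cells called 566, 369 and 885 genes, with 6 members in the inner class. The block without Ctrb1, Try5 or Igkc called 648, 307 and 1032 genes and 3, 2 and 8 members. The inner median was −0.92 without top cells and −0.80 with the block as well. For the Cnmd and Grem1 cluster it was −0.28 (block −0.19, 44 genes), without top cells −0.34 (block −0.11, 45 genes), and for the class without the cluster −0.38 with 10 genes (block −0.34, 262 genes). These sets hold fewer cells and testable members, and the cause of the other differences was not tested. Settings with top cells, the cluster or 2 choices together were chosen after seeing the data. The outer class was not fitted, having 6 to 15 cells in 3 libraries, and depth limits most effectors to a few UMIs per library.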
